A study of Gallus gallus with 54 samples.

Results

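The genes whose level differed most from one chicken breast muscle to the next were described across 18 breast muscles and, for comparison, 18 hearts and 18 spleens. The members were chosen by measured values. Levels were log2(CPM + 1), where CPM is a library's count per 1e6 counts after scaling by the trimmed mean of M values (TMM), and each level was centred on the mean of its altitude group, so that spread within an altitude counted and the difference between altitudes did not. Genes with a breast muscle mean of at least 5 CPM and their largest standard deviation (SD) in breast muscle were kept. Genes with an absolute correlation of 0.5 or more with the gene ENSGALG00000016400 in breast muscle were left out, as were muscle-selective genes (at least 8 times both other tissue means) with an SD below 1.5. The 120 genes with the highest SD were taken, of 24881 genes in the files and 7994 at 5 CPM or more in breast muscle. The SD, the tissue means and the correlations between members come from the values that chose them and are given as description, with no test. The low against high altitude contrast was tested.

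The study sequenced the mRNA of 3 tissues, heart, breast muscle and spleen, of indigenous Ethiopian chickens (Gallus gallus). High altitude chickens were a breed labelled as not adapted to heat, and low altitude chickens a breed labelled as adapted to heat, with 9 libraries of each per tissue and 54 in all. Libraries carry codes, H1 to H9 for high and L1 to L9 for low altitude, which recur in the 3 tissues, but the labels do not say that a code is 1 bird and give no age, sex or batch. The p-values therefore reflect how far libraries within a group differ, and breed, altitude and heat adaptation cannot be told apart.

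Chicken breast muscle is the flight muscle that lowers the wing, and it is built mainly of fast glycolytic fibres. Fat cells, fibroblasts, vessels, nerves and blood lie between the fibres, so RNA from a piece of muscle mixes fibre RNA with that of other cells. Fewer cells of a type and less RNA per cell cannot be told apart in such bulk samples. The files name genes only by identifier, and 0 of the 24881 identifiers matched the annotation table used here, so members are given by identifier, without symbol, function or sequence, and cell type markers could not be read.

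Breast muscle libraries held 9.31 to 13.1 M counts (M, 1e6), hearts 12.4 to 15.2 M and spleens 11.6 to 14.3 M. Across all genes, 4 high altitude breast muscles stood apart: the median Spearman correlation with the other breast muscles was 0.839 for H1, 0.867 for H8, 0.889 for H7 and 0.890 for H4, against 0.918 to 0.954 for the other 14. The same 4 libraries gave the smallest share of counts to 114 muscle-selective genes outside the 120 (at least 20 CPM and 32 times both other tissues). That share was 4.36% in H1, 7.11% in H8, 9.10% in H4 and 9.91% in H7, and 13.6% to 19.9% in the other 14. Genes equally selective for heart took at most 0.0345% of a breast muscle's counts, and those for spleen at most 0.0207%. For breast muscle, altitude differences of the groups and SDs by altitude are given with and without these 4 libraries. So are correlations of group means, except those of A and D with other groups and those with depth and spleen-selective genes. Altitude fits in heart and spleen used all libraries. Correlations of single genes were computed over all 18 libraries alone.

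The members' SD ranged from 1.39 to 3.25 on the log2 scale with a median of 1.57, against a median of 0.471 over the 7994 genes. Their median SD was 0.55 in heart and 0.381 in spleen, and 48 of the 120 had a breast muscle SD at least 3 times that of both other tissues, as did 172 of the 7994. The threshold fell in a dense stretch: ENSGALG00000009680 and ENSGALG00000038902 were the last taken, with SDs of 1.393 and 1.392. ENSGALG00000005095 and ENSGALG00000041227 were the first left out, with 1.391 and 1.389. A single library held at least 50% of a member's sum of squares in 6 members, and the median of the largest single share was 27.3%. The 120 genes together took 2.90% of the counts in breast muscle H4 and 11.4% in L3, the lowest and highest shares.

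Average linkage of the 120 members on 1 minus Pearson's r over the 18 centred breast muscle levels, stopped at a height of 0.5, gave 4 groups of 5 or more members. They are called A (34 members), B (32), C (29) and D (7) here, and 18 members fell in none. Which libraries carried the unevenness differed between groups. The map of levels by member and library shows these blocks.

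**Figure D1:**
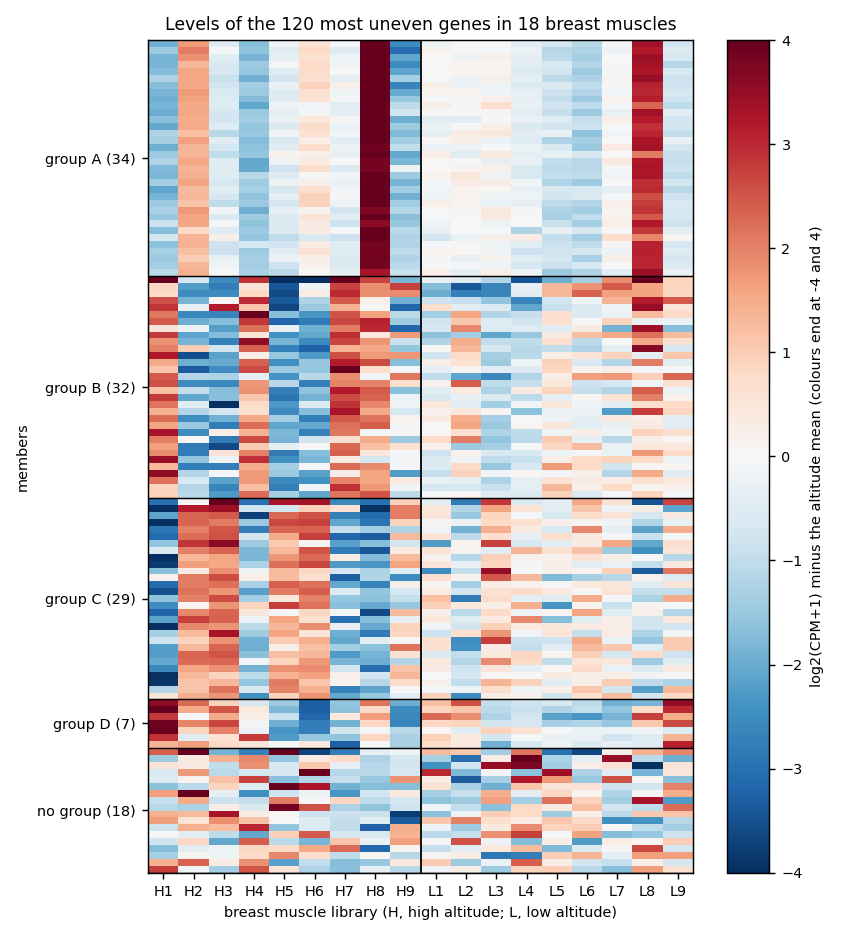
Centred log2(CPM + 1) of the 120 members (rows, by group and then by SD) in the 18 breast muscle libraries (columns; H, high altitude; L, low altitude), with colours ending at -4 and 4. Group A is high in H8 and L8, group B in H1, H4, H7 and H8, group C is low in those 4 libraries, and group D is high in H1 and L9.

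Group A was made of genes at a low level in most muscles and far higher in H8 and L8. Its mean centred level was 4.11 in H8, 3.02 in L8 and 1.46 in H2, and between -1.58 (H1) and 0.44 in the other 15 libraries. H8 had the highest centred level of the 18 libraries in 33 of the 34 members and L8 in the remaining member. All 34 members were above their altitude mean in H2 as well.

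Summed over the 34 members, high altitude muscles ranged from 94.5 CPM in H1 through a median of 267 to 7541 in H8, with 1166 in H2 as the next. Low altitude muscles ranged from 144 CPM in L6 through a median of 360 to 3395 in L8, with 376 as the next. H8 and L8 stood alone in their altitudes, and the other libraries of both altitudes overlapped.

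ENSGALG00000029411 followed the other members of group A most closely, with a mean r of 0.977 to them over 18 libraries. Its levels at high altitude were 3.87 CPM at the lowest, 14.8 at the median and 444 in H8, with 71.5 in H2 as the next. At low altitude they were 6.56, 16.0 and 207 CPM, the last in L8, with 21.4 as the next. H8, L8 and H2 were the 3 highest of the 18 libraries in this gene, and the altitudes overlapped.

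Group A members moved together far more tightly than the members of B, C and D. The mean r between pairs of members in breast muscle was 0.961, against 0.657 in B, 0.677 in C and 0.677 in D and 0.0039 over all pairs of the 7994 genes. Membership had selected uneven genes but had not used these pairwise correlations, and grouping had. In the tissues that did not enter the grouping, the mean pairwise r of group A was 0.771 in heart (33 members at 1 CPM or more) and 0.855 in spleen (19 members), whereas it lay between 0.0123 and 0.270 for B, C and D in either tissue. Without H8 and L8 the mean pairwise r of group A was 0.881 in breast muscle, 0.761 in heart and 0.747 in spleen. Without the 4 libraries that stood apart it was 0.935 in breast muscle, while that of B was 0.329, that of C 0.407 and that of D 0.669. These are correlations over 18 libraries that share depth and scaling, and no p is given for them.

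The libraries in which group A was high were not the same in every tissue. In spleen, H8 was again highest, with a sum of 179 CPM against 32.4 to 68.5 in the other high altitude spleens, while L8 lay within the low altitude range of 37.7 to 94.6. In heart, sums ran from 108 to 257 CPM at high and 91.4 to 363 CPM at low altitude, and L4 was highest. Over the 18 codes, the group's mean level in breast muscle had r = -0.30 with heart and 0.45 with spleen, which became 0.09 and 0.03 without the codes H8 and L8. Without the codes H1, H4, H7 and H8 the group had -0.32 with heart and -0.10 with spleen. With all codes, each of the 33 members measured in heart had a negative r between breast muscle and heart, from -0.53 to -0.09.

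Group B held genes that were on average high in the 4 high altitude muscles that stood apart. Its mean centred level was 2.38 in H7, 2.10 in H1, 1.78 in H4 and 1.54 in H8, with 1.44 in L8, and it was lowest in H5 at -2.27, followed by H6 at -1.75, H3 at -1.73 and H2 at -1.65. Summed over the 32 members, high altitude muscles ranged from 1009 CPM in H5 through 5291 at the median to 36684 in H7. Low altitude muscles ranged from 1397 CPM in L3 through 3631 to 10546 in L8, inside the high altitude range.

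The most uneven of all 120 members, ENSGALG00000009700, belonged to group B and had an SD of 3.25. At high altitude it was 2.50 CPM in H5 (14 counts), 71.9 CPM at the median and 3492 CPM in H1, followed by 2851 in H7, 878 in H4 and 765 in H8. At low altitude it was 3.14 CPM in L4, 30.8 at the median and 2816 in L8, with 163 in L7 as the next. The 4 libraries that stood apart and L8 were thus the 5 highest, and the altitudes overlapped over nearly their whole range. The same codes led in heart, where H1 was highest at 4886 CPM, H7 next at 3605 and L8 highest of the low altitude hearts at 1620. Over the 18 codes its r between breast muscle and heart was 0.907, the highest of the members.

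ENSGALG00000015209 had the highest mean r with the other members of group B, 0.776. It ranged from 5.90 through 42.3 to 357 CPM at high altitude, where H1 was highest and was followed by H7 at 313 and H8 at 267. At low altitude it ranged from 14.7 through 25.3 to 131 CPM, the last in L8. The 3 highest were all libraries that stood apart. Over codes, its r with heart was 0.768 and with spleen 0.843. ENSGALG00000036316, the fourth most uneven member with an SD of 2.16, ran from 2.68 CPM in H5 through 56.4 to 262 in H9 at high altitude. H7 was nearly equal to H9 at 261 CPM, followed by H8 at 142, H1 at 69.7 and H4 at 56.4. Low altitude values ran from 6.28 CPM in L2 through 136 to 415 in L7, and L8 had 227. The 4 libraries that stood apart thus followed H9 directly, and the altitudes overlapped.

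Group C ran opposite to group B. Its mean centred level was highest in H3 at 2.26, followed by H2 and H6 at 1.72 each and H5 at 1.52, and lowest in H1 at -2.54, H8 at -2.13, H7 at -1.57 and H4 at -1.31. The group means of B and C had r = -0.93 over the 18 breast muscles and -0.76 over the 14 left without H1, H4, H7 and H8. Group A had an absolute r of at most 0.14 with each of the other groups, but without H8 and L8 it had -0.54 with B and 0.52 with C. Summed over its 29 members, group C ran from 1562 CPM in H1 through a median of 85902 to 169259 in H6 at high altitude. At low altitude it ran from 57154 CPM in L2 through 136452 to 223932 in L3. Low altitude muscles lay inside the high altitude range apart from L3, and L2 and L9 lay below the high altitude median.

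Most of the sum of group C came from ENSGALG00000011086, the member with the most counts, not corrected for length, at a mean of 70023 CPM. It ranged from 808 CPM in H1 through 61847 to 124149 in H6 at high altitude, and from 36179 CPM in L2 through 91331 to 156403 in L3 at low altitude. The H6 value came from 820708 of 13.1 M counts and the H1 value from 9855 of 9.31 M counts. Scaling thus raised the value in H6 and lowered it in H1. H1, H4 at 7360 CPM, H8 at 7852 and H7 at 32634 were below every other breast muscle, and the other 5 high altitude libraries overlapped with low altitude. ENSGALG00000039468 had the highest mean r with the rest of group C, 0.798. It was 2.79 CPM in H1, 36.7 at the median and 169 in H5 at high altitude, and 47.7 in L2, 136 at the median and 177 CPM at the highest at low altitude. ENSGALG00000044975, the third most uneven member with an SD of 2.55, was at 0 CPM in H1, H4 and H8, 6.64 at the median and 126 in H3, and at low altitude it was 1.63 in L8, 21.7 at the median and 205 CPM in L3. In both genes H1 gave the lowest value, shared with H4 and H8 in the second, and the altitudes overlapped.

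The share of counts from the 114 muscle-selective genes outside the members moved with groups B and C. With that share, also centred within altitude, the mean level of group C had r = 0.92 and that of group B r = -0.80 over the 18 breast muscles, while A had -0.07 and D -0.40. Over the 14 libraries left without H1, H4, H7 and H8 these values were 0.63 for C, -0.28 for B, -0.05 for A and 0.11 for D. With depth, r over the 18 libraries was 0.40 for C, -0.24 for B, -0.22 for A and -0.35 for D. Over the 16 libraries left without H8 and L8, group A had r = 0.44 with the muscle-selective share and 0.47 with depth. Whether the muscle-selective share has a part in the unevenness of A, B and C was not tested. Many genes outside the 120 shared these patterns: of 7874 others at 5 CPM or more, 432 had r of at least 0.8 with group C, 35 of them muscle-selective, and 323 with group B. Groups A and D had 12 and 7 such followers.

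Group D, with 7 members, was highest in H1. Its mean centred level was 3.27 in H1, 2.08 in L9, 1.57 in H3 and 1.11 in H2, and it was lowest in H6 at -2.34 and H9 at -1.91. Summed over the members, high altitude muscles ran from 166 CPM in H6 through 1184 to 6101 in H1, and low altitude muscles from 120 CPM in L7 through 186 to 1141 in L9. The low altitude values lay in the lower part of the high altitude range or below it. ENSGALG00000026426 had the highest mean r with the rest, 0.813, and ran from 3.03 CPM in H6 through 50.3 to 603 in H1 at high altitude, with 220.5 in H3 as the next. At low altitude it ran from 5.10 CPM through 8.78 to 145 in L9. Group D was the group that moved most with the share of counts from heart-selective genes (r = 0.72, and 0.59 without the 4 libraries that stood apart). That share was 0.0345% in H1 and 0.0186% in L9, where group D was also highest, and 0.0022% to 0.0087% in the other breast muscles. These values of r therefore lean on H1 and L9, and without H1 on L9. With the share from spleen-selective genes group D had r = 0.53. The part of these shares in the result was not tested.

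The 18 members in no group had patterns of their own. ENSGALG00000032403, the second most uneven of all with an SD of 2.63, was 0.303 CPM in H6 (2 counts), 12.3 at the median and 516 in H2 at high altitude, with 330 in H5 as the next. At low altitude it was 3.54 CPM in L6, 119.02 at the median and 244 in L4. The high altitude range contained the low altitude range. In heart its highest value was 0.469 CPM and in spleen 0.172 CPM.

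Compared with other genes at 5 CPM or more in breast muscle, the members were spread unevenly over the tissues. The tissue of the highest mean was breast muscle for 97 members (80.8%), heart for 20 (16.7%) and spleen for 3 (2.50%), against 52.0%, 19.5% and 28.5% of the 7994 genes. Of the 120, 22 (18.3%) were at least 8 times both other tissues, against 3.90% of the 7994 genes, and 37 (30.8%) had a heart mean at least 8 times the spleen mean, against 8.12%. The rule itself acts on tissue means, through the muscle-selective genes it leaves out. It also demands the largest SD in breast muscle, which favours genes near 0 CPM in the other tissues, where log2(CPM + 1) can vary little. The 7994 genes did not have to meet that demand, so these shares are description. The groups differed in this placement. All are means in CPM, not corrected for gene length. Their scale also depends on TMM over the 3 tissues. In spleen H1, 2620 counts of ENSGALG00000009700 became 104 CPM, where spleens held 11.6 to 14.3 M counts. Scaling thus lowered that spleen value, while it raised some breast muscle values. Shares and medians with TMM within each tissue are not given here. Group A had medians of 16.8 CPM in breast muscle, 3.15 in heart and 1.28 in spleen, and none of its members was highest in heart or spleen by these means. Its breast muscle means draw heavily on the libraries in which it was high. The median over its members was 142 CPM in H8, 65.9 in L8 and 22.4 in H2. In the other breast muscles it was 1.76 to 8.09 CPM, against 1.51 to 6.88 CPM in single hearts (33 members at 1 CPM or more there). Group C had 19 of 29 members at 8 times or more in heart over spleen, with medians of 73.6, 22.4 and 0.732 CPM. Group D was highest in heart in 4 of 7 members, with a heart median of 119.2 CPM against 83.9 CPM in breast muscle. Group B had medians of 74.8, 22.3 and 8.89 CPM, with 2 of its 32 members under 1 CPM in heart and 4 in spleen.

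The SDs were larger at high altitude with all libraries. The SD over the 9 high altitude muscles exceeded that over the 9 low altitude muscles in 108 of the 120 members (90%), beside 83.2% of the 7994 genes, so most of the direction is shared with genes in general. The median SD was 1.99 at high and 1.20 at low altitude for the members, and 0.557 and 0.370 for the 7994 genes. This turned on the 4 libraries that stood apart: without them the high altitude SD was the larger in 64 of the 120 members (53.3%) and 59.0% of the 7994 genes, and the members' medians were 1.22 and 1.20. With all libraries, all 34 members of group A, 31 of 32 in B, 27 of 29 in C and 6 of 7 in D had the larger SD at high altitude, but 10 of the 18 members in no group. Without the 4 libraries the counts were 13 of 34 in A, 22 of 32 in B, 14 of 29 in C and 5 of 7 in D. In no group it was again 10 of 18. H8 gave the highest centred level of 36 members and H1 of 15, and among low altitude muscles L8 gave that of 8.

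**Figure D2:**
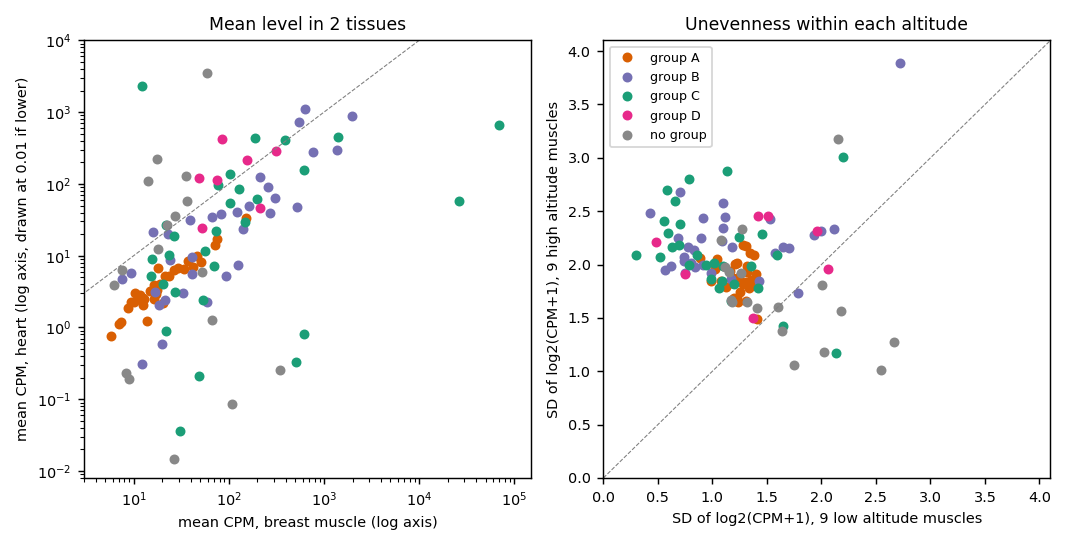
Left, the mean CPM of each member in breast muscle (x, log axis) and heart (y, log axis), with a dashed line at equal levels; right, the SD of log2(CPM + 1) over the 9 low altitude (x) and 9 high altitude (y) breast muscles. Group A lies on a narrow band below the line at left, and 108 of 120 members lie above the line at right.

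The mean levels of groups B and C over the codes ran in parallel in breast muscle and heart, although the size of the swings differed. For group B, r over the 18 codes was 0.93 between breast muscle and heart and 0.82 between breast muscle and spleen. For group C it was 0.78 with heart and 0.20 with spleen, and for group D 0.32 and 0.07. Without the codes H1, H4, H7 and H8, group B had 0.70 with heart and 0.28 with spleen, and group C had 0.57 and 0.22. Group D then had 0.16 with heart and -0.08 with spleen. Members at 1 CPM or more in heart had r of at least 0.5 with their breast muscle level in 26 of 107 cases, and 10.4% of the 7827 genes measured the same way did so. In spleen the count was 17 of 71, beside 9.24% of 7556 genes. Group B gave 12 of 30 in heart and 9 of 28 in spleen, and group C 9 of 24 and 1 of 12. The labels do not say that a code is 1 bird, so whether same-coded libraries share a source is unknown.

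**Figure D3:**
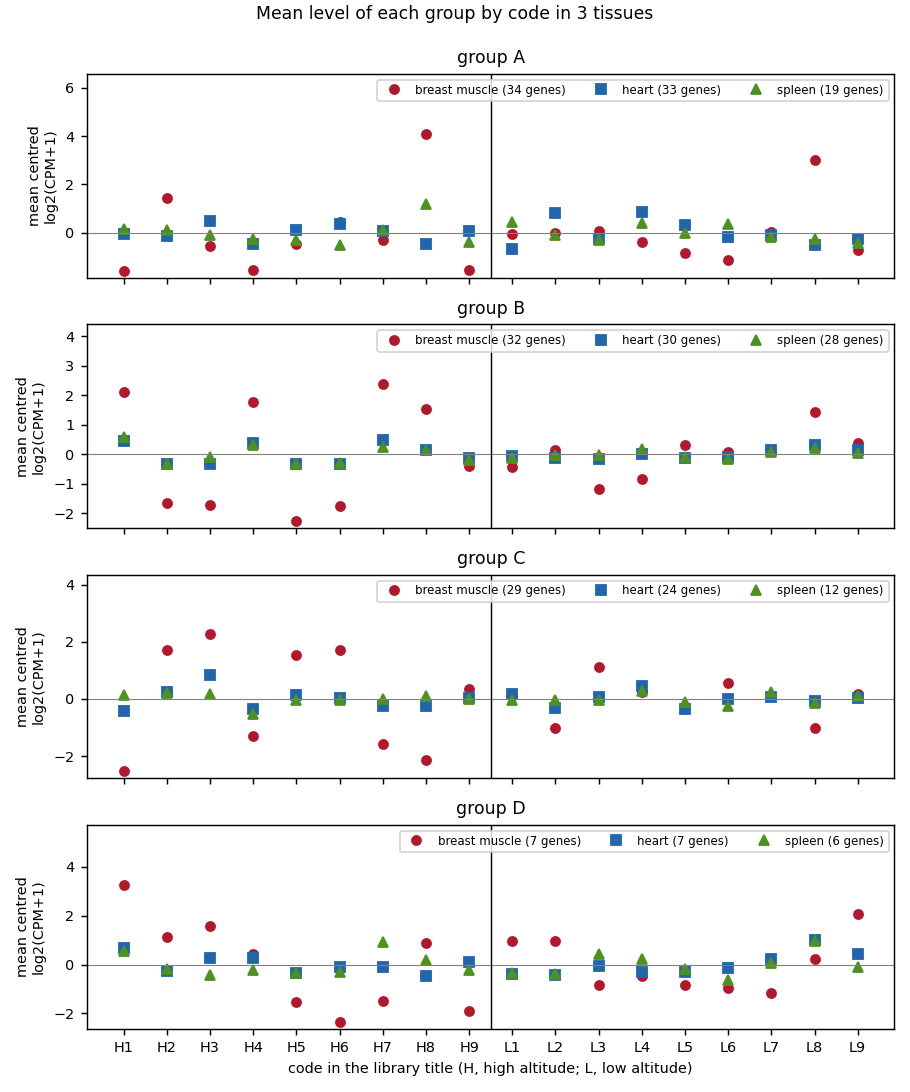
Mean centred log2(CPM + 1) of each group's members by code in breast muscle (red circles), heart (blue squares) and spleen (green triangles), for the 9 high and 9 low altitude codes. Group A swings in breast muscle at H8 and L8 with no such rise in heart, whereas the small swings of group B in heart follow those in breast muscle.

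Low against high altitude was tested with edgeR's quasi-likelihood test over all genes with enough counts, and fold changes and differences are log2 of low over high altitude with their standard error (SE). The SE was derived, as the absolute fold change divided by the square root of the test's F statistic. In breast muscle all of the 120 members but 1 passed the filter on low counts. With 9 libraries against 9, 0 of those tested passed a Benjamini-Hochberg adjusted p of 0.05, where 0.00988% of the 10120 genes tested did, and the smallest adjusted p of a member was 0.0736. With DESeq2 instead, 23 members passed, 3 higher and 20 lower at low altitude. The 0.00988% is edgeR's share of all genes, and the share that passed with DESeq2 is not given here. Under an unadjusted p of 0.05 DESeq2 gave 38 members (31.9%), beside 19.8% of all genes. At an unadjusted p under 0.05 edgeR gave 38 members (31.9%), beside 18.2% of all genes tested. Of these 8 were higher at low altitude, where the background was 6.48%, and 30 were lower, where it was 11.7%. Limma's voom fit gave 39 members (32.8%), beside 18.2% of all genes, and split them the other way, with 24 higher and 15 lower. The median log2 fold change was -0.74 over the members and -0.05 over all genes, and the members' median SE of 0.84 exceeded the 0.26 of all genes.

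Nearly all members lower at low altitude by the unadjusted p were in groups B and D. Group B had 23 of 32 members lower at an unadjusted p under 0.05, with a median log2 fold change of -2.27, and group D 6 of 7 lower with a median of -2.11. Group C had 4 of 29 higher with a median of 0.82, and 28 of its 29 fold changes were positive. With voom, where 18.2% of all genes were under that p in either direction, 20 of its 29 members were higher with a median of 1.85. In that fit B had 12 lower with a median of -1.45. Group A had 1 of 34 lower, with a median of -0.83.

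These numbers turned on the 4 high altitude muscles that stood apart. Without H1, H4, H7 and H8, which leaves 5 high and 9 low altitude libraries, 5 members (4.17%) were under an unadjusted p of 0.05, beside 11.9% of all genes. Of the 38, 4 were among them, and the fifth was ENSGALG00000009700, whose log2 fold change went from -1.33 to 3.80. The direction changed in 62 of the members tested, the split of positive to negative fold changes went from 41 to 78 into 85 to 34, and the median moved from -0.74 to 0.25. The group medians became 0.45 for A, 0.30 for B, 0.07 for C and -1.14 for D. The medians of C and D thus kept their sign, that of C after a fall from 0.82, and those of A and B did not. Group A turned on single libraries. Without H8 its median was 0.86, and without L8 it was -2.07 with 31 members lower at an unadjusted p under 0.05. In the fit without L8, 18.1% of all genes were under that p in either direction. Without both H8 and L8, an alternative chosen after seeing the data, the median of group A was -0.36. All 34 of its fold changes were then negative, with 0 under that p, beside 14.1% of all genes.

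**Figure D4:**
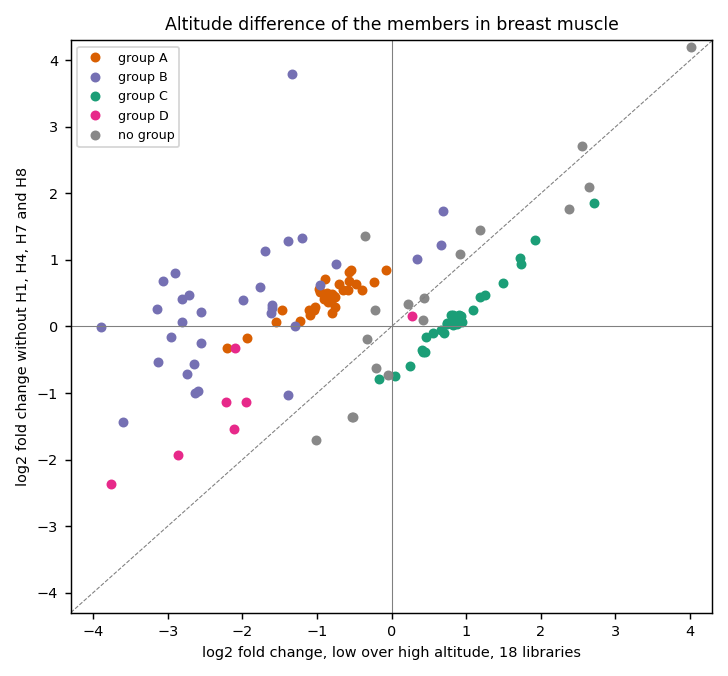
Log2 fold change, low over high altitude, of the members tested with all 18 breast muscles (x) and without H1, H4, H7 and H8 (y), with a dashed line at equal values. With all libraries 29 of 32 members of group B lie below 0, and without the 4 they spread from -1.44 to 3.80; 32 of 34 members of group A change sign, and 6 of 7 members of group D stay below 0.

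The member lower at low altitude with the smallest p was ENSGALG00000020805 of group B. It was 2.86 CPM at the lowest, 12.2 at the median and 294 in H8 at high altitude, where H4 had 253, H7 222 and H1 189. At low altitude it was 3.45, 5.29 and 14.9 CPM. Those 4 high altitude libraries lay far above all others, and the remaining 5 overlapped with low altitude. The log2 fold change was -3.89 (SE 0.86, edgeR quasi-likelihood test, Benjamini-Hochberg adjusted p = 0.0736), and it was -0.01 without the 4 libraries.

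ENSGALG00000007669 of group D was 3.03 CPM at the lowest, 22.0 at the median and 576 in H1 at high altitude, with 108 in H3 as the next, and 4.07, 5.91 and 13.1 CPM at low altitude. All 9 low altitude muscles lay below the high altitude median, though the ranges overlapped. The log2 fold change was -3.76 (SE 0.86, edgeR adjusted p = 0.0746). It was -2.36 without the 4 libraries that stood apart and -2.11 without H1 alone, so this gene's direction did not rest on them, while its size did.

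In the opposite direction, ENSGALG00000033700, in no group, was 0 CPM at the lowest, 2.68 at the median and 10.1 at the highest at high altitude, and 0.107 (1 count), 3.27 and 322 CPM at low altitude. The highest low altitude value was in L4 and the next, 99.4 CPM, in L7, and the medians were close. The log2 fold change was 4.02 (SE 1.23, adjusted p = 0.109 with edgeR) and fell to 2.36 without L4. ENSGALG00000023933, also in no group, was 0.952, 4.95 and 43.4 CPM at high and 9.18, 18.1 and 227 CPM at low altitude, again highest in L4. All 9 low altitude muscles were above the high altitude median, and the log2 fold change was 2.38 (SE 0.75, edgeR adjusted p = 0.117). It was 1.78 without L4, 3.02 without H6 and 1.76 without the 4 libraries that stood apart.

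In heart 106 members were tested and 0 passed the adjusted threshold with edgeR, where 0% of the 11872 genes did, and the smallest adjusted p of a member was 0.535. DESeq2 passed 1, ENSGALG00000043754, with its share of all genes not given here. At an unadjusted p under 0.05 there were 12 members (11.3%), 2 higher and 10 lower, beside 6.05% of all genes, with 3.27% higher and 2.78% lower. Group B gave 7 of the 10 lower. Among high altitude hearts, its mean level (30 members) was above the altitude mean only in H1, H4, H7 and H8. The centred values were 0.45, 0.38, 0.49 and 0.16. No fit without these codes was run for heart, so whether the difference rests on them was not tested. ENSGALG00000043754 of group B was 186, 901 and 3172 CPM in high altitude hearts, the last in H1, and 217, 333 and 484 CPM in low altitude hearts. All 9 low altitude hearts lay below the high altitude median but inside the high altitude range, and the log2 fold change was -1.69 (SE 0.43, edgeR adjusted p = 0.535). ENSGALG00000040180, also of group B, was 16.5, 38.1 and 154 CPM at high and 11.7, 24.9 and 39.1 CPM at low altitude. The highest hearts were H7, H1 at 145 CPM, H4 at 137 and H8 at 83.2. The log2 difference was -1.47 (SE 0.45, adjusted p = 0.710 with edgeR).

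Both members higher in low altitude hearts overlapped between altitudes. ENSGALG00000039458 of group C was 0.142, 2.91 and 8.46 CPM at high and 1.30, 4.78 and 28.1 CPM at low altitude, which gave a log2 difference of 1.67 (SE 0.69, adjusted p = 0.812 with edgeR). ENSGALG00000023933 had a log2 difference of 0.62 (SE 0.29, adjusted p = 0.818 with edgeR) in heart, with 8 of 9 low altitude hearts above the high altitude median. It was highest in L4 in both breast muscle and heart.

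In spleen 92 members were tested and 0 passed the adjusted threshold with edgeR, where 0% of the 13092 genes did, and the smallest adjusted p of a member was 0.568. DESeq2 passed 1, ENSGALG00000009700, with its share of all genes not given here. At an unadjusted p under 0.05 there were 10 members (10.9%), 2 higher and 8 lower, beside 5.77% of all genes, with 2.95% higher and 2.83% lower. All 8 lower members belonged to group B. Among high altitude spleens, the mean level of group B (28 members) was above the altitude mean only in H1, H4, H7 and H8. The centred values were 0.58, 0.32, 0.23 and 0.14. No fit without these codes was run for spleen, so whether the difference rests on them was not tested. ENSGALG00000009700 was 3.40, 14.3 and 104 CPM in high altitude spleens, highest in H1 as in breast muscle and heart, and 0.685, 4.36 and 10.3 CPM in low altitude spleens. The log2 fold change was -2.34 (SE 0.58, edgeR adjusted p = 0.568). ENSGALG00000037828, also of group B, was 4.98, 7.08 and 14.5 CPM at high and 4.22, 5.50 and 6.09 CPM at low altitude, with a log2 difference of -0.77 (SE 0.20, adjusted p = 0.568 with edgeR).

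Of the 2 members higher in low altitude spleens, ENSGALG00000011086, the group C gene with the most counts in breast muscle, was 0.688, 3.56 and 12.1 CPM at high and 6.07, 11.6 and 40.0 CPM at low altitude, with a log2 difference of 1.496 (SE 0.49, adjusted p = 0.805 with edgeR). ENSGALG00000029975 was 2.11, 4.32 and 13.8 CPM at high and 2.26, 16.9 and 30.6 CPM at low altitude, with a log2 difference of 1.08 (SE 0.49, adjusted p = 0.844 with edgeR). Both overlapped between altitudes. In each tissue the altitude groups overlapped for every member named here.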

How the data were processed

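The authors deposited a file of raw counts for each library, with 24881 identifiers in each. HISAT2 2.0.4, Cuffdiff, Cufflinks, featureCounts, FastQC and the build galGal4 are named, with no role or order, per the submitters' processing notes. The kit was stranded, per the labels' protocols, but how strand was used in counting is not given in the sources, so overlapping, antisense and near-identical genes are uncertain. CPM and log2(CPM + 1) were computed here from the counts with TMM over all 54 libraries (edgeR 4.0.16, R 4.3.3). Altitudes were compared within each tissue over all genes left by edgeR's default filter, with the robust quasi-likelihood test and Benjamini-Hochberg adjustment. The code was tested on simulated counts. DESeq2 1.42.0, limma 3.58.1 (voom), a replicate block, other scalings and filters, and libraries left out were alternatives.

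Named genes were the 4 of highest SD, the 2 of smallest p per direction and tissue, those at the threshold and the closest follower of each group. Members and lists were chosen with earlier results of these data known. The marker lists could not be used because 0 identifiers matched the table of 25635 genes (assembly GRCg7b).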

Additional observations from a re-analysis of the deposited data

Results flagged for a closer look

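The highest or lowest library was set against the other 8 of its altitude and tissue for the mean level of each group and for the genes closest to each group and of highest SD or smallest p, 64 sets in all. A library was marked when its gap to the nearest other, divided by the range, passed Dixon's critical value for 9 libraries. Of the 64 sets, 4 were marked. Among unselected values chance marks about 1 set in 20. That rate does not hold for breast muscle, where the genes were chosen for their spread in the same libraries, so the marks there are description.

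The mean log2(CPM + 1) of group A in low altitude breast muscles was 6.17 in L8 and 3.22 in the next library, a gap of 0.713 of the range. Its closest member ENSGALG00000029411 showed the same library, at 7.70 against 4.49, with a gap of 0.672. In high altitude spleens the mean level of group A was 2.87 in H8 and 1.80 in the next, a gap of 0.624. The mean level of group C in high altitude spleens was lowest in H4, at 2.70 against 3.17 in the next, a gap of 0.638.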

How the results depend on the processing

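Members past the adjusted threshold numbered 23 in breast muscle, 1 in heart and 1 in spleen with DESeq2, against 0 with edgeR in each. They numbered 0 to 14 in breast muscle when 1 library was left out (14 without H3, 5 without H6, 1 without L2 and 0 in the other 15 fits). The shares of all genes past that threshold in these alternatives are not given here, so the counts have no background beside them. At an unadjusted p under 0.05, breast muscle gave 25 with voom and sample quality weights (13 higher and 12 lower, against 8 and 30), which is 21.0% beside 14.4% of all genes. It gave 5 without the 4 libraries that stand apart (4.17% beside 11.9%). When 1 library was left out it gave 31 without H1 (26.1% beside 15.3%) to 70 without L8 (58.8% beside 18.1%). Group A had a median of -0.01 with voom, against -0.83. Spleen gave 6 members (6.52%) with voom, with quality weights and with the replicate block, beside 4.98%, 5.51% and 5.64% of all genes. The main fit gave 10 (10.9%), beside 5.77%, so the spleen members lay nearer the background in these 3 fits. The block gave 31 in breast muscle (17 higher and 14 lower, 26.1% beside 15.2% of all genes) and 16 in heart (15.1% beside 7.84%). With quality weights heart gave 11 (10.4%), below the 12.8% of all genes, against 12 (11.3%) beside 6.05% in the main fit. Of those 12 members, 2 were still under 0.05 with the weights. Replicate numbers paired only some libraries of the 2 altitudes: r was over 0.1 in 3 of 9 pairs in breast muscle and 5 of 9 in heart and in spleen. A high altitude library was closest to its own number in 3, 3 and 4 of 9. Numbers 8 and 9 were closest to their own in all 3 tissues. In breast muscle, heart and spleen, r was 0.433, 0.396 and 0.430 for number 8 and 0.277, 0.633 and 0.444 for number 9. H8 and L8, where group A was high, share the number 8, and what a number stands for is not given. Of the 120 members, the rule took 71 again without the 4 libraries and 68 without H8 and L8 (0 of group A), an alternative chosen after seeing the data. With 1 library left out it took 71 to 115, the lowest without L3, where 48 of 49 were lost through the correlation with ENSGALG00000016400. Without L3 the rule kept all 34 members of A and 6 of 7 in D, but 6 of 32 in B and 7 of 29 in C. The median r with that gene went from 0.33 to 0.61 in B and from -0.32 to -0.58 in C. The gene's level was 6.52 in L3 and at most 1.96 in the other low altitude muscles. Most of B and C thus passed this limit only with L3 included. Other pseudocounts, scalings, centring and CPM minimum took 82 to 113. The 12 fold changes picked by smallest p kept their sign in all 152 values run, with ENSGALG00000020805 at -0.01 without the 4 libraries. As they were picked by p in the same libraries, a change of sign was unlikely from the start. Libraries were left out in breast muscle alone, so those of heart and spleen were refitted only with other methods, scaling or filter. Of the 20 members named, 5 changed sign in breast muscle without H1, H4, H7 and H8 (ENSGALG00000009700, ENSGALG00000015209, ENSGALG00000029411, ENSGALG00000029975 and ENSGALG00000038902). Correlations and SDs without libraries were also added after seeing the data. Counts as low as 0, 1 or 2 per library in some members, the spread at high altitude and the lack of sex and batch labels limit these results.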

Other observations

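Group A members at 1 CPM or more in the other tissue also kept similar proportions to each other there. The 15 members under 1 CPM in spleen were not measured in this way. Across the measured members of group A, the log2 mean CPM in breast muscle had r = 0.94 with that in heart (33 genes) and 0.92 with that in spleen (19 genes). All genes at 5 CPM or more in breast muscle had 0.70 and 0.47, group B 0.84 and 0.43, and group C 0.49 and 0.60. Group D had 0.31 (7 genes) and 0.30 (6 genes). These are correlations across genes, which are not independent replicates. The genes of group A also had late identifiers: the number in the identifier exceeded 29000 in 33 of 34, against 13 of 32 in group B, 12 of 29 in group C, 1 of 7 in group D and 34.2% of the 7994 genes. That limit was chosen after the values were seen. ENSGALG00000041227, the second gene below the threshold for membership, had the same libraries at the top, with 56.5 CPM in H8 against 6.22 in the next high altitude muscle and 22.6 CPM in L8 against 2.68 in the next low altitude muscle.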
